A study of Mus musculus with 8 samples.

Results

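The genes described here are 8 regulators of cell death in mouse neutrophils: Casp8, Cflar, Birc2, Birc3, Xiap, Ripk1, Ripk3 and Mlkl. They were chosen by gene symbol, and all 8 were found among the 24421 genes of the count table. RNA was sequenced from bone marrow neutrophils, isolated magnetically from 8-week-old female mice on the C57BL/6 background that were wild type (WT) or carried a deletion of exon 1 of Padi4 (Padi4 KO). The neutrophils were left unstimulated or were given R848, a small-molecule agonist of the RNA sensor TLR7, at 1 µg/ml for 6 h. The 4 groups were therefore unstimulated WT, WT after R848, unstimulated Padi4 KO and Padi4 KO after R848, with 2 libraries each. The labels do not say whether the libraries of a group came from separate mice, so the p-values may measure technical spread only. The sample titles give 0 h for the unstimulated cells and the treatment protocol gives 6 h. If the titles hold, 6 h of culture cannot be told apart from R848 in the responses below.

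Caspase-8, encoded by Casp8, is the protease that starts apoptosis when it is activated at death receptors such as FAS and the TNF receptor. Its catalytically inactive relative cFLIP, encoded by Cflar, pairs with it and restrains that activity, and the inhibitor of apoptosis proteins cIAP1 (Birc2), cIAP2 (Birc3) and XIAP (Xiap) act at the same receptors or directly on effector caspases. When caspase-8 is not active, the kinases RIPK1 and RIPK3 can assemble a complex that phosphorylates the pseudokinase MLKL, which then permeabilizes the plasma membrane in the lytic form of death called necroptosis. Cflar and Birc3 are well-known targets of NF-kappaB, the transcription factor that TLR and TNF receptor signals activate.

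The libraries held between 562446 and 1177972 reads counted on genes, with a mean of 620594.5 in WT and 1032734 in Padi4 KO, so low genes were measured less precisely in WT. At this depth, 3 counts corresponded to between 2.55 and 5.33 CPM (counts scaled to 1e6 reads on genes), and such floors cover counting error only. Padi4 itself had 590 and 527 counts in unstimulated WT, 166 and 234 in WT after R848, 40 and 54 in unstimulated Padi4 KO, and 34 and 21 in Padi4 KO after R848. The 10 neutrophil markers found in the table, of 11 listed, summed to between 148400 and 154600 CPM in unstimulated WT and between 121000 and 122600 CPM in unstimulated Padi4 KO. After R848, they summed to between 125100 and 139000 CPM in WT and between 100400 and 101100 CPM in Padi4 KO. The globin genes Hba-a1, Hba-a2, Hbb-bs and Hbb-bt were at 0 in every library. The other 8 of the 12 erythroid markers in the table were detected, as given below, so these zeros do not show that erythroid RNA was absent.

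On the GRCm38 mouse genome in the GENCODE annotation, the 8 genes lie at 6 loci. Cflar (chr1:58711508-58758884) and Casp8 (chr1:58795374-58847503) are neighbours on the plus strand with 36489 bp between them. Birc2 (chr9:7818227-7837064) and Birc3 (chr9:7848699-7873186) are neighbours on the minus strand with 11634 bp between them. Xiap lies at chrX:42059679-42109656 on the plus strand, Ripk1 at chr13:34002363-34037147 on the plus strand, Ripk3 at chr14:55784995-55788865 on the minus strand and Mlkl at chr8:111311797-111338177 on the minus strand. Ripk1 shares 241 of its 8344 exonic bp with Serpinb6a on the opposite strand, which had between 7 and 42 counts per library. The strand setting of the counting is not given in the sources used here, so the Ripk1 counts are uncertain to that extent.

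The promoters of Cflar and Birc3 are shown because these genes had the 2 largest rises among the 8 genes. They are RefSeq sequences on GRCm38.p6 that run from 250 bp before to 50 bp after the transcription start, written 5′ to 3′ on the strand of the gene. The Cflar window is chr1:58711241-58711540 on the plus strand, and capitals mark its match to an interferon-stimulated response element. The Birc3 window is chr9:7873121-7873420 on the minus strand, and no motif searched for was matched in it.
Cflar: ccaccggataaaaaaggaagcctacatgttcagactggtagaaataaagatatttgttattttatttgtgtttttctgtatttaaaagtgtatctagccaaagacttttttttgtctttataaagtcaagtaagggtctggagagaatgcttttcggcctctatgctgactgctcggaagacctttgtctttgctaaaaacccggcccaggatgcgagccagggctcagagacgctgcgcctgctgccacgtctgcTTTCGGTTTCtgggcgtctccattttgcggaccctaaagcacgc
Birc3: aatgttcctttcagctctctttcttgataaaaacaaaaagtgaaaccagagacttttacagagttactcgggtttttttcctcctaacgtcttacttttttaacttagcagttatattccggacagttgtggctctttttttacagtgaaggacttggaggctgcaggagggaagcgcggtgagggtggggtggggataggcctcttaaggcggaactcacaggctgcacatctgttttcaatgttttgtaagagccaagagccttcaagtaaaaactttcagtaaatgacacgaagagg
The 3 motifs named below were searched for on both strands of 12 windows of the 8 genes. The response element was written as GAAANNGAAA, the AP-1 site as TGANTCA, and the kappaB site is given by its name. The response element matched the Cflar window from 6 to 15 bp after the start on the minus strand, and a window of Ripk1 from 5 bp before to 4 bp after the start. The kappaB motif matched a window of Xiap alone, and the AP-1 motif matched none of the windows. Of all 32851 promoter windows, 3.44% held the response element, 8.46% the kappaB motif and 7.81% the AP-1 motif. A match describes the letters of the window only.

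In the response of WT neutrophils to R848, Cflar and Birc3 rose more than 4-fold, and Mlkl fell at an adjusted p that did not hold in every setting. Padi4 KO neutrophils had the same directions for these 3 genes, with rises of 3.39-fold for Cflar and 4.93-fold for Birc3. Casp8 and Xiap rose by less than 2-fold in both genotypes, with values that passed in some settings only, except Xiap in WT, and Birc2, Ripk1 and Ripk3 passed in neither. A gene counted as called in a response when it moved by over 2-fold with an adjusted p below 0.1. Adjusted p-values throughout are those of edgeR's quasi-likelihood test (Benjamini-Hochberg correction) for 12254 tested genes. By that rule, 2 of the 8 genes were called higher and 1 lower in each genotype, which is 37.5%, against 18.0% of all genes tested in WT (7.17% higher and 10.8% lower) and 16.9% in Padi4 KO (8.07% higher and 8.84% lower). Without Mlkl, whose call was lost with DESeq2 in both genotypes and in WT also with thinned counts, without unstimulated WT replicate 1 or without WT R848 replicate 1, 2 genes were called in each. At the adjusted p alone, 4 were higher and 1 lower in each genotype, which is 62.5%, against 29.5% of all genes in WT (13.5% higher and 16.0% lower) and 35.1% in Padi4 KO (19.2% higher and 15.9% lower). This count of 5 depended on the setting. In WT it was 3 with DESeq2, 4 with library size alone and 6 with relative log expression factors, and in Padi4 KO it was 2 with DESeq2 and 3 with library size alone, relative log expression factors or thinned counts. Leaving out each library in turn gave 3 to 6 genes in WT (3 without unstimulated WT replicate 1) and 3 to 5 in Padi4 KO (3 without any 1 of the 4 libraries after R848). The libraries of the groups did not overlap for 7 of the 8 genes in WT, against 54.5% of all genes, and for 6 in Padi4 KO, against 61.2%. Across the 8 genes the log2 fold change had a median of 0.57 for WT and 0.40 for Padi4 KO, beside -0.17 and -0.031 across all genes. These are bulk samples, in which fewer cells of a type and less RNA per cell cannot be told apart.

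**Figure D1:**
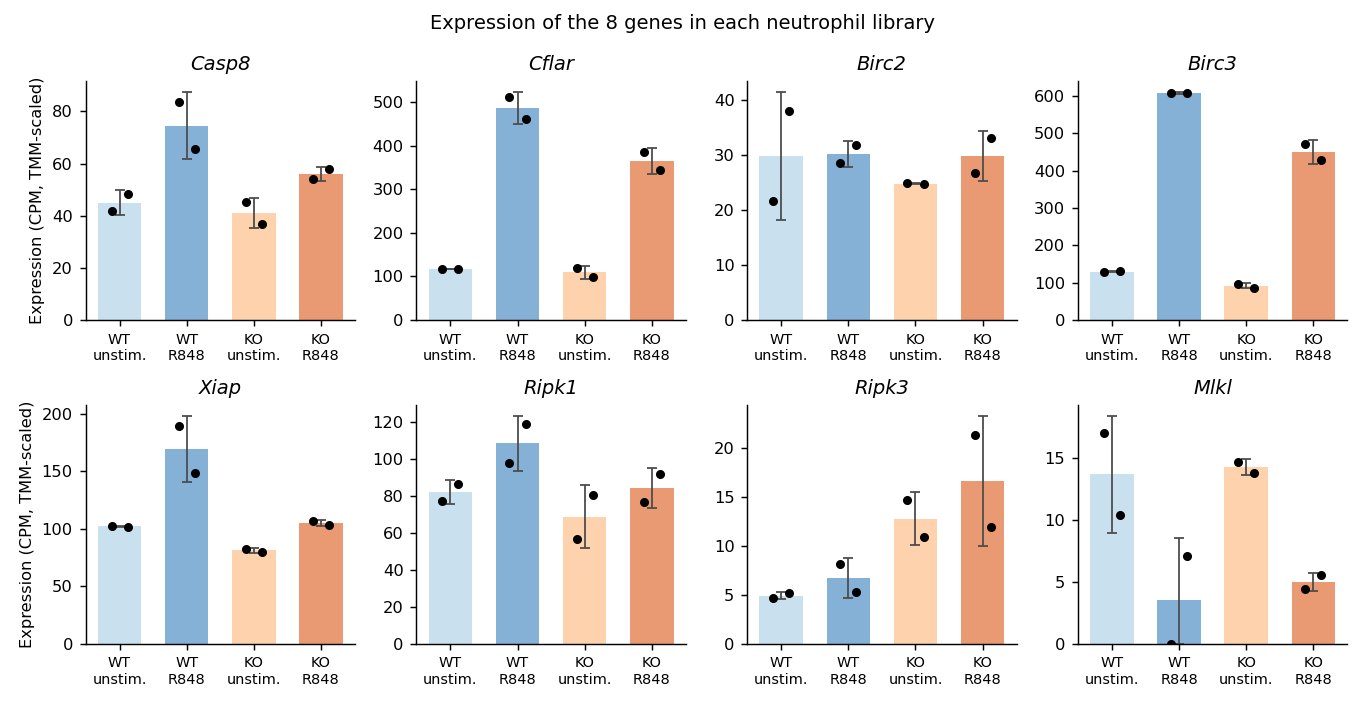
Expression of each of the 8 genes as CPM scaled with TMM factors (vertical axes, which differ between panels and start at 0). Points are the 2 libraries of each group, bars their mean and error bars the SD, drawn down to 0 where the SD exceeds the mean. Cflar and Birc3 stand highest after R848 in both genotypes, at 486 and 608 CPM in WT, and Mlkl is lower after R848.

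Casp8 had 27 and 28 counts in unstimulated WT, 41 and 37 in WT after R848, 40 and 51 in unstimulated Padi4 KO, and 61 and 63 in Padi4 KO after R848. Scaled with TMM factors, as all CPM values below, this was 45.0 ± 4.67 CPM (SD, n = 2), 74.5 ± 12.8, 41.1 ± 5.81 and 56.1 ± 2.62 CPM. Both libraries after R848 stood above both unstimulated libraries in each genotype. The log2 fold change was 0.72 (SE 0.26, adjusted p = 0.0237) in WT and 0.47 (SE 0.21, adjusted p = 0.0634) in Padi4 KO, below the 2-fold minimum in both. With DESeq2 neither passed (adjusted p = 0.121 and 0.539), nor with library size alone (0.236 and 0.751), nor did the WT value without WT R848 replicate 1 (0.116) or unstimulated WT replicate 1 (0.181). The Padi4 KO value of Casp8 also missed the threshold with relative log expression factors (0.140) and thinned counts (0.587), without unstimulated Padi4 KO replicate 2 (0.464), and without any 1 of the 4 libraries after R848 (0.185 to 0.449).

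Cflar, whose product holds caspase-8 in check, had 76 and 68 counts in unstimulated WT and 251 and 260 after R848, or 117 ± 0.0642 and 486 ± 36.2 CPM. In Padi4 KO it had 106 and 136 counts unstimulated and 434 and 374 after R848, or 109 ± 15.0 and 365 ± 29.6 CPM. In each genotype every library after R848 was far above every unstimulated library. The rise was 4.12-fold in WT, a log2 fold change of 2.04 (SE 0.15, adjusted p = 1.48e-48), and 3.39-fold in Padi4 KO, a log2 fold change of 1.76 (SE 0.12, adjusted p = 9.64e-51).

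Birc2 and Birc3 encode related ubiquitin ligases that attach ubiquitin chains to RIPK1 at the TNF receptor. Birc2 had 14 and 22 counts in unstimulated WT, 14 and 18 in WT after R848, 22 and 34 in unstimulated Padi4 KO, and 30 and 36 in Padi4 KO after R848. Its means lay between 24.8 ± 0.142 CPM in unstimulated Padi4 KO and 30.2 ± 2.36 CPM in WT after R848, and its WT libraries overlapped. The log2 fold change after R848 was 0.045 (SE 0.36, adjusted p = 0.997) in WT, with a 95% interval from -0.66 to 0.75, and 0.27 (SE 0.27, adjusted p = 0.512) in Padi4 KO, with an interval from -0.26 to 0.80.

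Birc3, its neighbour on chromosome 9, had 83 and 76 counts in unstimulated WT and 299 and 343 after R848, or 130 ± 2.05 and 608 ± 1.48 CPM. In Padi4 KO it had 86 and 120 counts unstimulated and 532 and 465 after R848, or 92.2 ± 7.18 and 450.0 ± 32.0 CPM. The groups were widely apart in both genotypes, and Birc3 had the largest rise of the 8 genes in each. It rose 4.69-fold in WT, a log2 fold change of 2.23 (SE 0.14, adjusted p = 6.16e-65), and 4.93-fold in Padi4 KO, a log2 fold change of 2.30 (SE 0.12, adjusted p = 9.30e-86).

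Xiap, which encodes the inhibitor that binds effector caspases directly, had 66 and 59 counts in unstimulated WT and 93 and 84 after R848, or 102 ± 0.12 and 169 ± 28.9 CPM. In Padi4 KO it had 73 and 110 counts unstimulated and 120 and 112 after R848, or 81.2 ± 1.92 and 105 ± 2.60 CPM. The groups did not overlap in either genotype. The log2 fold change was 0.72 (SE 0.18, adjusted p = 0.000388) in WT and 0.37 (SE 0.15, adjusted p = 0.0520) in Padi4 KO, below the 2-fold minimum in both. With DESeq2 the Padi4 KO value did not pass (adjusted p = 0.499), with relative log expression factors it missed the threshold too (0.151), and with library size alone it became -0.0047. It also did not pass with thinned counts (0.491) or without either unstimulated Padi4 KO library (0.111 and 0.251), and without any 1 of the 4 libraries after R848 (0.214 to 0.510), where the Xiap log2 fold change was as low as 0.20 without Padi4 KO R848 replicate 1.

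Ripk1, the kinase that serves both survival and death signals at the TNF receptor, had 50 and 50 counts in unstimulated WT, 48 and 67 in WT after R848, 50 and 111 in unstimulated Padi4 KO, and 86 and 100 in Padi4 KO after R848. The means were 81.8 ± 6.38, 108 ± 14.7, 68.5 ± 17.0 and 84.2 ± 10.96 CPM. The Padi4 KO groups overlapped and the WT groups did not. R848 gave Ripk1 a log2 fold change of 0.42 (SE 0.21, adjusted p = 0.133) in WT and 0.25 (SE 0.17, adjusted p = 0.288) in Padi4 KO, and neither passed. The WT value of Ripk1 did pass with relative log expression factors (adjusted p = 0.0652), thinned counts (0.0489) and separate models (0.0449), without WT R848 replicate 1 (0.0237, with a log2 fold change of 0.68) and without either Padi4 KO library after R848 (0.0537 and 0.0534). The Padi4 KO value passed without unstimulated Padi4 KO replicate 2 (0.57, adjusted p = 0.0621).

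Ripk3 and Mlkl, the kinase and the executioner of necroptosis, were close to the detection limit. Ripk3 had 3 and 3 counts in unstimulated WT, 4 and 3 in WT after R848, 13 and 15 in unstimulated Padi4 KO, and 24 and 13 in Padi4 KO after R848. Its WT libraries were at or next to the floor of 3 counts, and no response could be resolved at this depth. For Ripk3 the log2 fold change was 0.43 (SE 0.83, adjusted p = 0.772) in WT and 0.43 (SE 0.38, adjusted p = 0.438) in Padi4 KO.

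Mlkl had 11 and 6 counts in unstimulated WT, 0 and 4 in WT after R848, 13 and 19 in unstimulated Padi4 KO, and 5 and 6 in Padi4 KO after R848. The means were 13.7 ± 4.70, 3.54 ± 5.01, 14.2 ± 0.644 and 4.98 ± 0.758 CPM. Both libraries after R848 lay below both unstimulated libraries in each genotype, and in the library with 0 counts the floor of 3 counts was 4.92 CPM when scaled by library total alone, without the TMM factor of the means. For Mlkl the log2 fold change was -1.83 (SE 0.84, adjusted p = 0.0521) in WT, a 3.56-fold fall, and -1.48 (SE 0.53, adjusted p = 0.0111) in Padi4 KO, a 2.79-fold fall. Neither call held with DESeq2 (adjusted p = 0.244 in WT and 0.193 in Padi4 KO), though its log2 fold changes were of similar size (-1.81 and -1.60). The Mlkl call in WT was also lost without the library with 0 counts, WT R848 replicate 1 (log2 fold change -0.82), without unstimulated WT replicate 1 (-1.42) and with thinned counts (-1.61, adjusted p = 0.163). Leaving out WT R848 replicate 2 kept only the library with 0 counts in that group. The Mlkl log2 fold change in WT was then -6.56, which is no measure of size. At an adjusted p of 0.05, 2 genes in place of 3 were called in WT.

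**Figure D2:**
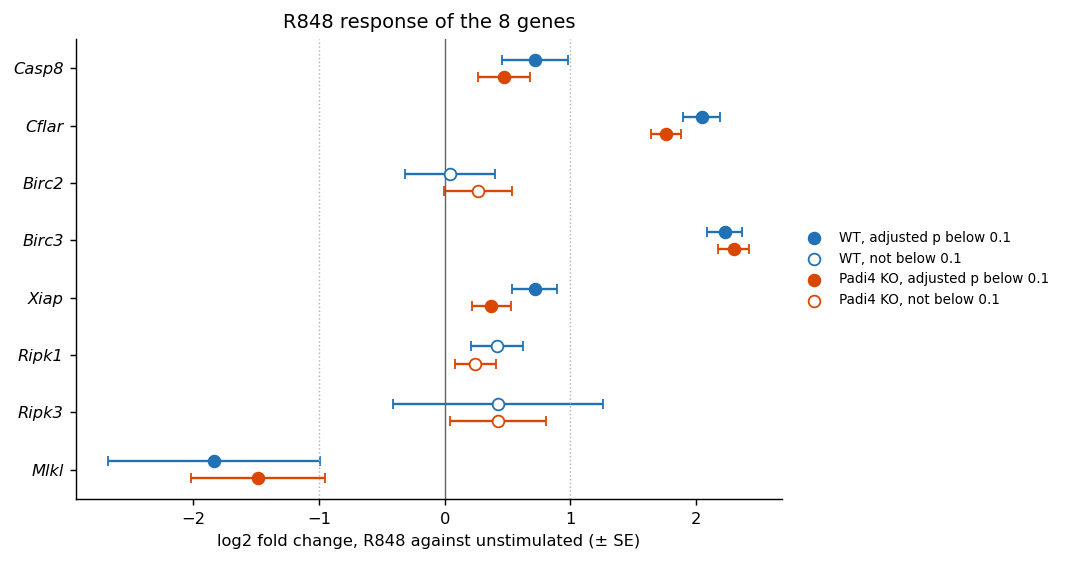
Log2 fold change after R848 (horizontal axis) for the 8 genes in WT (blue) and Padi4 KO (orange), with bars for the SE. Filled points have an adjusted p below 0.1 and dotted lines mark 2-fold. Cflar and Birc3 lie beyond the line on the right in both genotypes and Mlkl beyond the line on the left.

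Whether Padi4 changed the response was tested as the response in Padi4 KO minus that in WT. None of the 8 genes passed an adjusted p of 0.1, against 4.71% of all genes (3.45% higher and 1.26% lower), and 0 had an unadjusted p below 0.05 with edgeR's quasi-likelihood test and TMM factors. With relative log expression factors Cflar (-0.44) and Xiap (-0.50) were below 0.05 unadjusted, as they were with thinned counts (-0.50 and -0.64), and neither setting called them (edgeR adjusted p = 0.299 and 0.360, and 0.375 and 0.417). DESeq2 called 0 and gave no adjusted p for Casp8, Birc2, Ripk3 and Mlkl. For Birc3 the difference was 0.073 on the log2 scale, with a 95% interval from -0.29 to 0.44, and for Cflar it was -0.28, from -0.65 to 0.091. For Xiap it was -0.35, from -0.81 to 0.12, and for Casp8 it was -0.24, from -0.89 to 0.41. The intervals of Ripk3, from -1.80 to 1.80, and Mlkl, from -1.61 to 2.31, were too wide to place either gene. Without WT R848 replicate 2, Cflar (-0.59) and Xiap (-0.75) passed, so the count of 0 depended on that library.

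The levels in the genotypes were then compared within each treatment. After R848, Padi4 KO neutrophils had lower Cflar, Birc3 and Xiap than WT neutrophils, by 1.33-fold, 1.35-fold and 1.60-fold. Without stimulation, Birc3 alone passed, 1.42-fold lower in Padi4 KO. These comparisons were called at an adjusted p below 0.1 with no fold minimum, and no member changed by more than 2-fold among those called. After R848, 3 of the 8 genes were called, all lower, which is 37.5%, against 17.3% of all genes (9.46% higher and 7.81% lower). Unstimulated, 1 of the 8 was called, which is 12.5%, against 23.9% of all genes (9.55% higher and 14.4% lower). The libraries of the genotypes did not overlap for 6 of the 8 genes after R848, against 50.1% of all genes, and for 3 unstimulated, against 55.4%. Across the 8 genes the log2 fold change had a median of -0.39 after R848 and -0.18 unstimulated, beside 0.083 and -0.034 across all genes.

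Birc3 was lower in both Padi4 KO libraries than in both WT libraries under each treatment. Its log2 fold change, Padi4 KO against WT, was -0.51 (SE 0.16, adjusted p = 0.0122) unstimulated and -0.43 (SE 0.095, adjusted p = 0.000123) after R848. The unstimulated call was lost with DESeq2 (-0.45, adjusted p = 0.154), and without unstimulated Padi4 KO replicate 2 (-0.41) or either Padi4 KO library after R848 (-0.38 in each case). Cflar overlapped between the genotypes without stimulation (-0.13, SE 0.16, adjusted p = 0.661) and did not after R848, where its log2 fold change was -0.41 (SE 0.10, adjusted p = 0.000970). Xiap did not overlap under either treatment, with log2 fold changes of -0.33 (SE 0.18, adjusted p = 0.198) unstimulated and -0.68 (SE 0.16, adjusted p = 0.000305) after R848. Scaling by library size alone, which moved the median of all genes by 0.29 unstimulated and 0.21 after R848, ended the calls of Birc3 and Cflar and left that of Xiap.

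Casp8, Birc2 and Ripk1 passed in neither genotype comparison. After R848, both WT libraries of Casp8 and Ripk1 were above both Padi4 KO libraries, with log2 fold changes of -0.40 (SE 0.22, adjusted p = 0.253) and -0.37 (SE 0.18, adjusted p = 0.184). Without Padi4 KO R848 replicate 2, the number of genes called after R848 was 5 in place of 3. Ripk3 was the reverse case, with 3 or 4 counts in every WT library and 13 to 24 in every Padi4 KO library. In CPM this was 4.91 ± 0.383 in unstimulated WT, 6.73 ± 2.01 in WT after R848, 12.8 ± 2.70 in unstimulated Padi4 KO and 16.6 ± 6.63 in Padi4 KO after R848. The log2 fold change was 1.31 under each treatment (SE 0.68 and 0.62), with adjusted p = 0.119 unstimulated and 0.104 after R848, just outside the threshold. With the stricter filterByExpr filter on low counts it passed under both treatments (adjusted p = 0.0811 and 0.0725). Ripk3 was kept by that filter through its Padi4 KO libraries alone, and fewer genes are then adjusted for, so this pass adds no support. DESeq2 did not call Ripk3 unstimulated. Mlkl overlapped between the genotypes under each treatment, with log2 fold changes of 0.029 (SE 0.46, adjusted p = 0.990) and 0.38 (SE 0.89, adjusted p = 0.852).

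**Figure D3:**
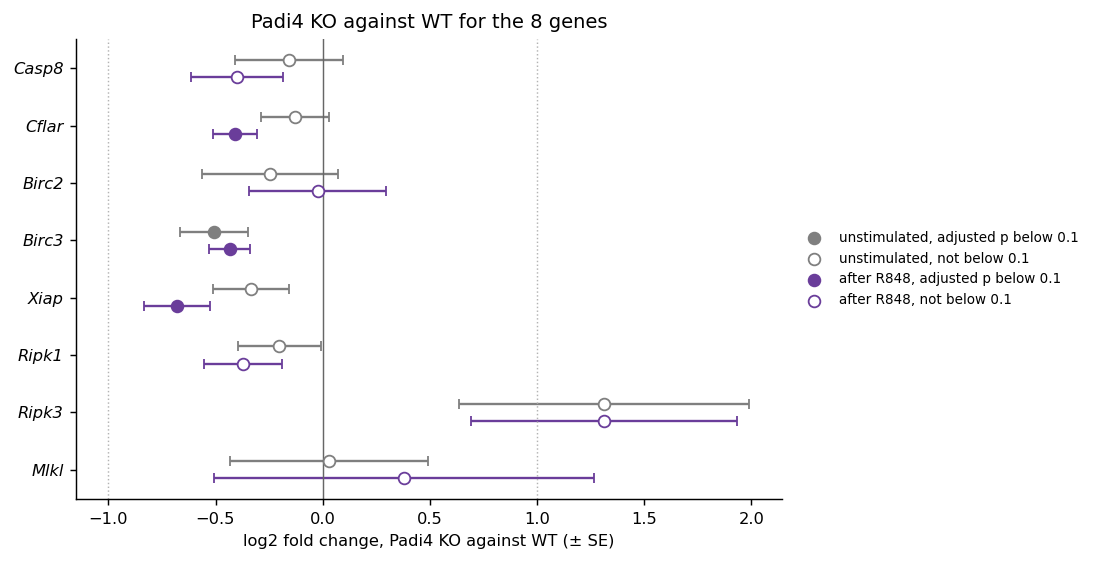
Log2 fold change of Padi4 KO against WT (horizontal axis) for the 8 genes, unstimulated (grey) and after R848 (purple), with bars for the SE. Filled points have an adjusted p below 0.1 and dotted lines mark 2-fold. Birc3 is called under both treatments, Cflar and Xiap after R848, and both Ripk3 points lie at 1.31 with open symbols.

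Markers of other cells moved with genotype and treatment beside these differences. The 8 erythroid markers detected summed to between 92.5 and 96.7 CPM (here scaled by library total only) in unstimulated WT and between 962 and 1006 CPM in unstimulated Padi4 KO, and 7 of the 8 were called higher in Padi4 KO. After R848 the sums were between 19.4 and 23.0 CPM in WT and between 1126 and 1146 CPM in Padi4 KO, with all 8 called higher. The 9 monocyte and macrophage markers summed to between 326 and 359 CPM in unstimulated WT and between 721 and 780 CPM in unstimulated Padi4 KO, with 6 of the 9 called higher in Padi4 KO. After R848 they summed to between 2872 and 2951 CPM in WT and between 2970 and 3053 CPM in Padi4 KO, with 4 called higher and 1 lower in Padi4 KO. The neutrophil markers were called lower in Padi4 KO for 9 of 10 unstimulated and 8 of 10 after R848. Beside these marker counts, 9.55% of all genes were called higher and 14.4% lower in unstimulated Padi4 KO, and 9.46% higher and 7.81% lower after R848. Stromal and endothelial markers summed to between 185 and 217 CPM in unstimulated WT, between 508 and 652 CPM in unstimulated Padi4 KO and at most 30.9 CPM after R848. The lists of B cells, T and NK cells, and eosinophils, basophils and mast cells reached at most 16.8, 39.0 and 28.1 CPM in any library. The part of these cells in the levels of the 8 genes, Ripk3 included, was not tested.

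Levels of different genes were compared as CPM per kb of exonic sequence. Birc3 was highest of the 8 genes in every group, at 25.9 ± 0.41 CPM per kb in unstimulated WT, 121 ± 0.30 in WT after R848, 18.4 ± 1.43 in unstimulated Padi4 KO and 89.8 ± 6.39 in Padi4 KO after R848. Cflar stood second after R848, at 38.4 ± 2.86 CPM per kb in WT and 28.8 ± 2.34 in Padi4 KO, followed by Casp8, at 25.8 ± 4.41 and 19.4 ± 0.91. Unstimulated, Casp8 was second, at 15.6 ± 1.61 CPM per kb in WT and 14.2 ± 2.01 in Padi4 KO. Ripk3 was lowest in unstimulated WT, at 2.14 ± 0.17 CPM per kb, and Mlkl was lowest after R848, at 1.54 ± 2.17 in WT and 2.16 ± 0.33 in Padi4 KO. In unstimulated WT, Ripk1 and Cflar overlapped, as did Birc2 and Mlkl. In unstimulated Padi4 KO, Cflar, Xiap and Ripk1 overlapped in turn, as did Mlkl, Ripk3 and Birc2, the last at 5.41 ± 0.031 CPM per kb. After R848, Ripk3 and Mlkl overlapped in WT, and Xiap, Ripk1, Ripk3 and Birc2 overlapped in turn in Padi4 KO. With the longest transcript in place of all exonic bases, Cflar moved to second place in the unstimulated groups too.

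The other genes of the pathway were taken from 7 lists of 52 genes, of which 46 were tested. In the R848 response, 11 were called higher and 1 lower in WT, and 8 higher and 1 lower in Padi4 KO. These were 26.1% and 19.6% of the 46, beside 18.0% (7.17% higher and 10.8% lower) and 16.9% (8.07% higher and 8.84% lower) of all genes. The median log2 fold change was 0.22 in WT and 0.21 in Padi4 KO. Most of the 46 genes were not called in either response. Of the calls named below, DESeq2 kept all 11 in WT and all 9 in Padi4 KO, and library size alone kept 9 and 8. The exceptions under library size alone, Cycs and Eif2ak2 in WT and Otulin in Padi4 KO, fell below the 2-fold minimum.

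Of the 6 genes tested for death receptors, TNF receptors and their ligands, 3 were called higher in each genotype and none lower. Of all genes, 7.17% were called higher in WT and 8.07% in Padi4 KO, the shares beside which the counts of the next lists stand. Tnf, the ligand of the TNF receptors, rose by a log2 fold change of 4.72 (SE 0.22) in WT and 5.14 (SE 0.22) in Padi4 KO. Tnfrsf1b, encoding TNF receptor type 2, rose by 4.23 (SE 0.14) and 3.77 (SE 0.10), and the death receptor gene Fas by 3.37 (SE 0.21) and 3.39 (SE 0.17). Of the 17 adaptor, kinase and ubiquitin enzyme genes, 5 were called higher in WT and 4 in Padi4 KO, which is 29.4% and 23.5%. They included Tnip1, a ubiquitin-binding inhibitor of NF-kappaB signalling (4.09, SE 0.17, and 4.54, SE 0.15), and its partner Tnfaip3, encoding A20 (4.28, SE 0.26, and 4.62, SE 0.24). Ikbkg, the regulatory subunit of the IkappaB kinase, rose by 2.36 (SE 0.17) and 3.11 (SE 0.17), and Otulin, which removes linear ubiquitin chains, by 1.59 (SE 0.39) and 1.13 (SE 0.23). The Padi4 KO call of Otulin was lost without either WT library after R848 or without Padi4 KO R848 replicate 2.

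Of the 5 other caspase genes tested, 1 was called higher in each genotype, and 1 lower in WT, where 10.8% of all genes were lower. Casp4, whose product senses bacterial lipopolysaccharide in the cytosol, rose by 2.52 (SE 0.31) in WT and 1.66 (SE 0.22) in Padi4 KO. Casp2 had a log2 fold change of -1.77 (SE 0.42) in WT. Among the 5 apoptosome and IAP antagonist genes, Cycs, encoding cytochrome c, was the only one called (1.05, SE 0.30, in WT), and that call was lost with filterByExpr and without unstimulated WT replicate 1 (0.90). None of the 5 other BIR domain genes was called in either response, nor either of the 2 gasdermin genes. At the adjusted p alone, 2 of those BIR domain genes were lower in WT and 1 higher in Padi4 KO, and both gasdermin genes were higher in Padi4 KO, beside 16.0% of all genes lower in WT and 19.2% higher in Padi4 KO. Among the 6 necroptosis sensors and regulators, Eif2ak2 was called higher in WT (1.06, SE 0.25) and Zbp1, a nucleic acid sensor that can recruit RIPK3, lower in Padi4 KO (-1.14, SE 0.28), where 8.84% of all genes were lower. The Zbp1 call was lost without unstimulated Padi4 KO replicate 1 (-0.90) or Padi4 KO R848 replicate 2 (-0.99).

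**Figure D4:**
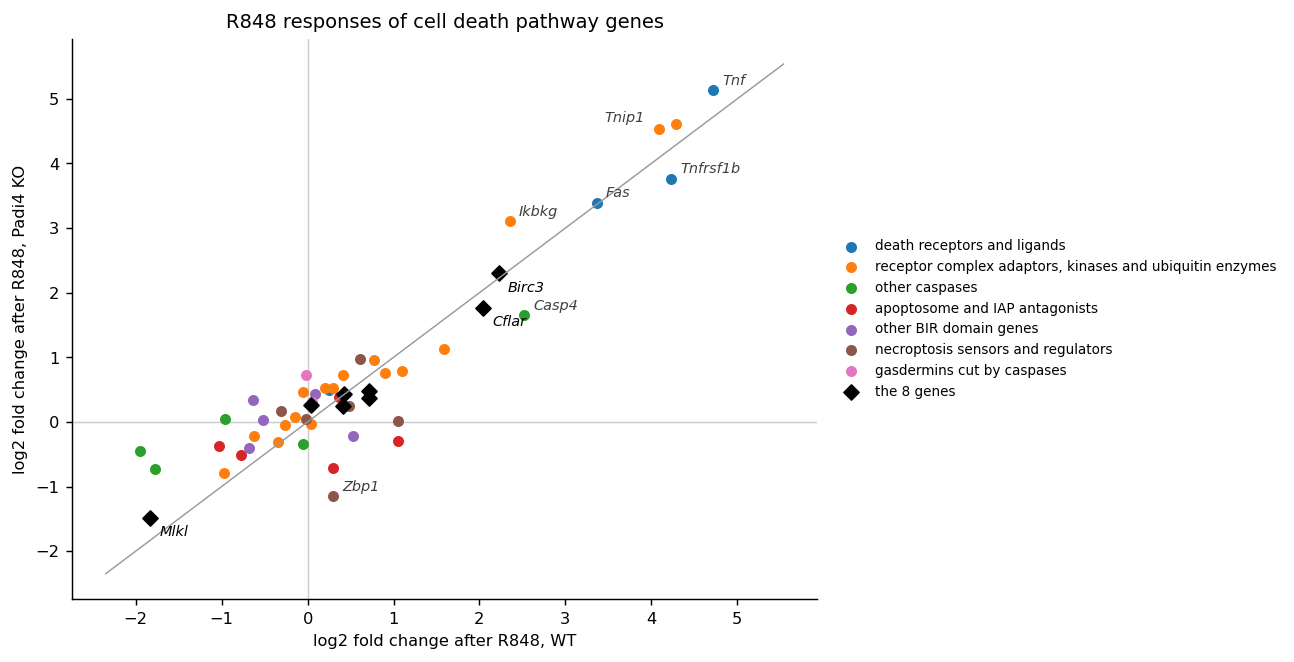
Log2 fold change after R848 in WT (horizontal axis) and in Padi4 KO (vertical axis) for the 8 genes (black diamonds) and 44 pathway genes above 3 counts in at least 1 library (circles, coloured by list), with a line of equal response. The axes do not share control samples. Tnf, Tnfaip3, Tnip1 and Tnfrsf1b lie beyond Birc3 and Cflar, and Mlkl lies at the lower left.

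In the genotype comparisons, 2 of the 46 pathway genes were called higher and 11 lower in unstimulated Padi4 KO, and 3 higher and 7 lower after R848. This is 28.3% and 21.7%, against 23.9% of all genes unstimulated (9.55% higher and 14.4% lower) and 17.3% after R848 (9.46% higher and 7.81% lower). Unstimulated, the lower genes included Tnfrsf1a (-0.47, SE 0.11), Tnf (-0.91, SE 0.30), Ikbkg (-0.98, SE 0.21), Cyld (-0.57, SE 0.19), Tab2 (-0.39, SE 0.14) and Apaf1 (-0.34, SE 0.14), with Tnfrsf1b (0.42, SE 0.16) and Cycs (0.76, SE 0.27) higher. The other lower genes were Naip2, Naip5, Birc6, Gsdmd and Gsdme, listed in the table as Dfna5. The Naip genes are related copies, and whether reads shared between copies affected their counts was not checked. After R848, Tnf (-0.49, SE 0.086), Fas (-0.31, SE 0.10), Tnfaip3 (-0.38, SE 0.099), Casp4 (-0.60, SE 0.17), Cycs (-0.58, SE 0.24), Eif2ak2 (-1.19, SE 0.22) and Zbp1 (-0.88, SE 0.33) were lower in Padi4 KO. Casp2 (1.10, SE 0.42), Htra2 (1.38, SE 0.51) and Birc5 (1.25, SE 0.27), the last encoding the mitotic protein survivin, were higher. DESeq2 kept 5 of the 13 unstimulated calls and 4 of the 10 calls after R848, and library size alone kept 4 and 5. The calls kept with library size alone were 2 higher and 2 lower unstimulated, and 3 higher and 2 lower after R848, so the larger number of lower genes depended on the scaling. With relative log expression factors, 2 higher and 10 lower were kept unstimulated, and 3 higher and 7 lower after R848.

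Those of the 8 genes that averaged at least 20 counts, 6 in number, were also compared with 5176 other genes by the Pearson r of log2 CPM over the 8 libraries. These values describe the libraries, which share treatment and genotype, and carry no test. Birc3 was most like Ptpn6 (r = 0.999) and Stfa2l1 (r = 0.998), and Cflar most like Plekho2 (r = 0.999) and Agpat5 (r = 0.998). Cflar and Birc3 had an r of 0.992 with each other. Casp8 was most like Trafd1 (r = 0.981) and Snap23 (r = 0.974), and Xiap most like Acta2 (r = 0.991) and Txnip (r = 0.989). Ripk1 was most like Arid3b (r = 0.968) and Atxn2 (r = 0.965), and Birc2 most like Mgrn1 (r = 0.940) and Plod1 (r = 0.913). Ripk3 and Mlkl, with 9.75 and 8.0 counts on average, were not compared.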

How the data were processed

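Magnetically isolated WT and Padi4 KO neutrophils from bone marrow were profiled by paired-end RNA sequencing in 4 groups of 2 libraries, grouped by the sample labels. The authors trimmed reads with cutadapt 1.16, checked them with FastQC 0.11.7, mapped them to mm10 with STAR 2.5.3a and counted them on genes with HTSeq 0.6.1p1, as named in the submitters' processing notes and the study's methods. The deposited values are raw counts per gene symbol, without normalization. The annotation and strand setting are not given in the sources used here. The 5 HTSeq summary lines were left out; between 87.0% and 89.4% of the reads in the table were on genes.

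Genes with at least 1 count in at least 2 libraries (12254 of 24421) were tested with edgeR 4.0.16 (limma 3.58.1, R 4.3.3). The robust quasi-likelihood fit had TMM factors and 4 group means, with Benjamini-Hochberg adjustment over all genes tested. Standard errors were computed from the weights and moderated quasi-dispersion of that fit. A response was called when it passed an adjusted p of 0.1 and exceeded 2-fold, the rule in the study's methods, and other contrasts at an adjusted p below 0.1. The study used DESeq2, which was run here in version 1.42.0 as an alternative. With 2 libraries per group no exact test of a single gene can pass, so each p-value borrows its spread from all genes. In each group, the libraries differed by more than counting noise (chi-square over degrees of freedom from 1.05 to 1.67).

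The other alternatives were scaling by library size alone or by relative log expression factors, edgeR's filterByExpr or a minimum of 1 count in any library, a block on the replicate number, counts thinned to the smallest library, a model per comparison, an adjusted p of 0.05, other fold minimums and each library left out in turn. The test was checked on simulated counts. The 8 genes, pathway lists and marker lists were chosen with earlier results of these data known. Results for some single genes of the lists are left out here. Named are the 8 genes, up to 4 called genes of each list and comparison with the smallest p, Padi4, and for each of the 8 genes with at least 20 counts on average the 2 genes most like it. Exonic lengths and positions are from GENCODE on GRCm38, and promoters from RefSeq on GRCm38.p6; all 8 genes were matched by symbol.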

Additional observations from a re-analysis of the deposited data

Results flagged for a closer look

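For 6 of the pathway genes the R848 response differed between the genotypes by edgeR's quasi-likelihood test (Benjamini-Hochberg adjusted), and for none of the 8 genes described above. Of the 46 pathway genes tested this is 13.0%, with 3 higher and 3 lower, against 4.71% of all genes (3.45% higher and 1.26% lower). A difference is the Padi4 KO response minus the WT response, in log2 units.

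Zbp1, the sensor that can recruit RIPK3, had 17 and 18 counts in unstimulated WT, 16 and 21 in WT after R848, 46 and 49 in unstimulated Padi4 KO, and 26 and 16 in Padi4 KO after R848. Its level was lower after R848 in Padi4 KO alone, and the difference was -1.44 (SE 0.44, adjusted p = 0.0379). Eif2ak2, encoding the kinase PKR that senses double-stranded RNA, rose in WT (1.06) and had 0.014 in Padi4 KO, with a difference of -1.04 (SE 0.34, adjusted p = 0.0563). Cycs rose in WT (1.05) and had -0.29 in Padi4 KO, with a difference of -1.34 (SE 0.36, adjusted p = 0.00924).

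The differences of Birc5 at 0.98 (SE 0.34, adjusted p = 0.0855), Gsdme, listed as Dfna5, at 0.75 (SE 0.21, adjusted p = 0.0185), and Ikbkg at 0.75 (SE 0.24, adjusted p = 0.0483) went the other way. DESeq2 gave Dfna5 and Ikbkg adjusted p-values of 0.435 and 0.499 and the other 4 genes no adjusted p, and library size alone kept 4 of the 6 calls, those of Birc5 and Ikbkg being lost. Relative log expression factors kept 0 of the 3 higher differences, with Birc5 at 0.82 (adjusted p = 0.243), Dfna5 at 0.60 (adjusted p = 0.126) and Ikbkg at 0.60 (adjusted p = 0.221), and all 3 lower ones. Ikbkg had 65 and 34 counts in unstimulated WT, 230 and 205 in WT after R848, 38 and 54 in unstimulated Padi4 KO, and 400 and 378 in Padi4 KO after R848. Its unstimulated WT libraries lay far apart, and the Ikbkg difference was 0.29 without replicate 1 of that group (adjusted p = 0.816) and 1.07 without replicate 2 (adjusted p = 0.0064). It was also 0.34 without WT R848 replicate 2. Each of the 6 calls was lost without at least 1 library, and the other higher differences were at their lowest 0.49 for Birc5 without WT R848 replicate 1 and 0.43 for Dfna5 without Padi4 KO R848 replicate 1. The pathway genes at 3 counts or fewer in every library, 2 of 46, were included in this test, and neither passed.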

How the results depend on the processing

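With no fold minimum, 5 genes in place of 3 were called in each R848 response, and with a 2-fold minimum 0 were called in Padi4 KO against WT under either treatment. For the unstimulated genotype comparison, in which 1 gene was called, DESeq2 called 0, and filterByExpr, the replicate block and separate models each called 2, the second being Ripk3 (adjusted p = 0.0811, 0.0977 and 0.0699). Leaving out each library in turn gave 0 to 2 genes there (0 without Padi4 KO unstimulated replicate 2, 2 without either WT R848 library, and without either Padi4 KO R848 library 1, Ripk3 in place of Birc3), 0 to 2 for the difference of response (2 without WT R848 replicate 2), 3 to 5 for Padi4 KO against WT after R848 (5 without Padi4 KO R848 replicate 2). The cause was not tested. Same-numbered libraries did not deviate together (correlations from -0.020 to 0.020). The differences within groups were only somewhat above counting noise (chi-square over degrees of freedom from 1.05 to 1.67), so this cannot exclude that the samples were paired.

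Values that changed sign were of genes that passed in neither setting, except Xiap, called at the adjusted p in Padi4 KO. Library size alone gave Birc2 -0.26 in the WT response, Birc2 -0.11, Xiap -0.0047 and Ripk1 -0.13 in the Padi4 KO response, Casp8 0.13, Cflar 0.16, Birc2 0.041 and Ripk1 0.084 in the unstimulated genotype comparison, and Birc2 0.19 in that after R848. FilterByExpr gave Birc2 -0.0085 in the WT response, and separate models Cflar 0.014 unstimulated. Thinned counts gave Casp8 0.21 and Ripk1 0.059 unstimulated, Mlkl -0.76 after R848, and a difference of response of -0.12 for Birc3 and -0.96 for Mlkl, where DESeq2 and relative log expression factors gave Birc3 -0.087 and -0.083.

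Leaving out each library also changed signs. The ranges were -0.32 to 0.48 for Birc2 in the WT response and, in Padi4 KO, -0.19 to 0.65 for Ripk3, -0.020 to 0.27 for Birc2 and -0.017 to 0.57 for Ripk1. For the difference of response they were -0.72 to 0.17 for Ripk3, -0.80 to 4.95 for Mlkl, -0.22 to 0.59 for Birc2, -0.24 to 0.13 for Birc3 and -0.57 to 0.15 for Ripk1. For Padi4 KO against WT they were -0.62 to 0.19 for Birc2, -0.26 to 0.44 for Mlkl, -0.26 to 0.020 for Casp8 and -0.24 to 0.038 for Cflar unstimulated, and -0.64 to 5.13 for Mlkl and -0.28 to 0.015 for Birc2 after R848. The highest Mlkl values leave the library with 0 counts as the only one of WT after R848 and are no measure of size.

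Of the genes called, 39.8% were higher in the WT response, 47.7% in the Padi4 KO response, 73.3% in the difference, and 39.9% and 54.8% in Padi4 KO against WT unstimulated and after R848. Library size alone gave 23%, 23.1%, 60%, 77.2% and 81.8%. Relative log expression factors gave 40.7% for the difference and 42.1% after R848, and DESeq2 53% for the WT response, 28% for the difference and 38.4% after R848. Ripk3 had 3 or 4 counts in each WT library, which limits its fold changes.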

Other observations

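Taken over both treatments, a contrast added after the data were seen, Padi4 KO against WT passed for 4 of the 8 genes with edgeR's quasi-likelihood test (Benjamini-Hochberg adjusted), against 29.7% of all genes tested. Ripk3 was higher in Padi4 KO by 1.31 on the log2 scale (SE 0.46, adjusted p = 0.0084), with all 4 Padi4 KO libraries above all 4 WT libraries. Birc3 was lower by a log2 fold change of -0.47 (SE 0.093, adjusted p = 7.85e-06), Xiap by one of -0.51 (SE 0.12, adjusted p = 0.000215) and Cflar by one of -0.27 (SE 0.095, adjusted p = 0.0233). With library size alone, 2 of these 4 passed, Ripk3 (1.56, adjusted p = 0.00108) and Birc3 (-0.22, adjusted p = 0.0787), while Xiap had -0.25 (adjusted p = 0.11) and Cflar -0.018 (adjusted p = 0.974). With relative log expression factors all 4 passed, and Ripk1 too (-0.31, adjusted p = 0.0713). With TMM factors Ripk1 had -0.29 (SE 0.13, adjusted p = 0.101). Casp8, Birc2 and Mlkl had -0.28, -0.13 and 0.20, and did not pass. This contrast was not run with DESeq2, with thinned counts or with any library left out. The summed erythroid markers, given above, were higher in Padi4 KO under both treatments, at most 96.7 CPM in any WT library and at least 962 CPM in any Padi4 KO library. The summed neutrophil markers were lower in Padi4 KO under both treatments and the monocyte markers higher in Padi4 KO, from between 326 and 359 CPM to between 721 and 780 CPM unstimulated and from between 2872 and 2951 CPM to between 2970 and 3053 CPM after R848. Their part in the values of these 4 genes was not tested.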
